A study of Mus musculus with 21 samples.

Results

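A set of 10 genes that regulate the choice of an odorant receptor were followed here: Lhx2, Ldb1, Ebf1, Ebf2, Ebf3, Ebf4, Emx2, Kdm1a, Rcor1 and Bptf. They were taken by name and not by a threshold on their levels, though with earlier results of these data known. All 10 were present in both deposited tables, which list 23587 and 22918 genes and share 22786. The samples were 21 RNA-seq libraries from cells sorted out of the main olfactory epithelium of mice. Every mouse carried a tetracycline-responsive construct, either tetO-HyperTRIBE_mCherry (HT) or tetO-Mex3a_HyperTRIBE_mCherry (MexHT). HyperTRIBE edits RNA and so marks the transcripts bound by a protein fused to it, Mex3a is an RNA-binding protein, and mCherry is the red fluorescent protein used for the sort.

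Mice carrying both drivers, gg8tTA and OMPtTA, expressed the construct in immature and mature olfactory sensory neurons (OSN) and gave 6 MexHT OSN, 3 HT OSN, 5 MexHT mCherry-negative and 3 HT mCherry-negative libraries. Mice with gg8tTA alone, a driver of immature neurons, all carried MexHT and gave 2 OSN and 2 mCherry-negative libraries. Per the labels, the mCherry-negative library with a given number came from the same mouse as the OSN library of that number. No group lacked an editing construct, the HT mice carried no Mex3a fusion, and mouse ages are not given in the labels. The mCherry-negative cells are all cells that the sort took as unlabelled. The 2 driver genotypes were deposited in separate tables and their library names carry different months, so a driver effect and a date effect cannot be told apart.

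Each mature olfactory neuron transcribes one odorant receptor gene out of a large family. Lhx2, a LIM-homeodomain factor, and the Ebf proteins bind together at intergenic enhancers of the receptor genes, and Ldb1 bridges those enhancers to each other and to the chosen gene. Emx2 is a homeodomain factor needed for normal receptor expression, Kdm1a (LSD1) is the histone demethylase whose transient activity is needed to activate the chosen receptor gene, Rcor1 (CoREST) is the scaffold that holds Kdm1a with histone deacetylases, and Bptf is the large subunit of the nucleosome remodeller NURF.

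In GRCm38 the genes lie at chr2:38339271-38369737 (Lhx2), chr19:46031525-46048145 (Ldb1), chr11:44618100-45008096 (Ebf1), chr14:67233292-67430952 (Ebf2), chr7:137193671-137322805 (Ebf3), chr2:130295126-130370482 (Ebf4), chr19:59458690-59465357 (Emx2), chr4:136550533-136602787 (Kdm1a), chr12:111039367-111115902 (Rcor1) and chr11:107033081-107132147 (Bptf). RefSeq promoter windows (GRCm38.p6) were found for 9 of the 10 genes, 13 windows in all, and were read over the 250 bases before the transcription start. Both strands were searched for CCCNNGGG, the paired half-sites of an Ebf element, and for TAATTA, a LIM-homeodomain core, which cannot overlap each other. CCCNNGGG was found in 2 member windows, against 11.9% of the 32536 windows in the table, and TAATTA in 0, against 4.84%. The windows below are those of Ebf3 (minus strand, chr7:137314446-137314695) and Ldb1 (minus strand, chr19:46039622-46039871), which hold the Ebf half-sites, in capitals, and those of Kdm1a (minus strand, chr4:136602788-136602973, the 186 bases of its window outside the annotated gene) and Ebf4 (plus strand, chr2:130295689-130295938), the members with the largest positive and negative difference between MexHT and HT neurons, which hold neither motif. The Ldb1 and Ebf4 windows lie in introns of longer annotated transcripts, and the Ebf3 window lies within the bounds of the RefSeq gene, at a place where GENCODE vM21 has no transcript. A match is a description of the letters and not a binding site.
Ebf3: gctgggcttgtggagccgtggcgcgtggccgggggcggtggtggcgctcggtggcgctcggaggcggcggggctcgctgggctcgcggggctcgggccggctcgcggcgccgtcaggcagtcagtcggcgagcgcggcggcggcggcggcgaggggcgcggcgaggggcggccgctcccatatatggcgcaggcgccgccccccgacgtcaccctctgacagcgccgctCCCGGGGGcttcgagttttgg
Ldb1: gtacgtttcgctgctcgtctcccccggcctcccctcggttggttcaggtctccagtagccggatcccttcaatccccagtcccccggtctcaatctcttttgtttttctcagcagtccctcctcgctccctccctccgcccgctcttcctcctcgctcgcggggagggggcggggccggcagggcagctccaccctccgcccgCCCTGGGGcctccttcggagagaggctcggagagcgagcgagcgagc
Kdm1a: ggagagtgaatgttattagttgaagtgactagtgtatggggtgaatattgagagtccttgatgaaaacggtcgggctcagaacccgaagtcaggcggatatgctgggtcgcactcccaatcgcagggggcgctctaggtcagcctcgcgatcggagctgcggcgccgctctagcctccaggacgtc
Ebf4: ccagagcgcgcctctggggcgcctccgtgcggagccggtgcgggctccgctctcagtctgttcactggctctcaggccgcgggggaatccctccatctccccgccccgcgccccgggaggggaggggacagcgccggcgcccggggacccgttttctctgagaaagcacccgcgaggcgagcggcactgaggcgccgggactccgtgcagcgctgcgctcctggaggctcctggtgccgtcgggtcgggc

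The libraries held 7374018 to 12389561 counts with both drivers and 10201855 to 15171465 with gg8 alone, as recovered from the deposited TPM, a length-scaled level that sums to 1000000 in each library. Every member was well counted: the lowest recovered count was 505 with both drivers and 205 with gg8. Mex3a, the gene in the fusion, was at 328 to 1271 TPM in MexHT OSN and 24.0 to 61.5 TPM in HT OSN, and reads of the transgene and of the native gene cannot be told apart. In the sorted neurons the connective tissue and vessel markers summed to 99.8 to 331 TPM, against 7922 to 23797 TPM in the mCherry-negative cells of the same genotypes. Myeloid markers summed to 406 to 780 TPM in MexHT OSN and 1402 to 5594 TPM in HT OSN. No gene of the marker lists was at 0 in every library of a group. Nothing in the labels says whether the mice of a group came from separate litters or sort days, so p-values measure the spread between these libraries.

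The order of the members' levels differed between the groups. In HT OSN the mean order from the highest was Ebf3, Ebf2, Ebf4, Ebf1, Lhx2, Emx2, Ldb1, Kdm1a, Bptf and Rcor1. Neighbours did not overlap in that order from Lhx2 down, and Ebf3 and Ebf2, Ebf4 and Ebf1, and Ebf1 and Lhx2 did overlap. In MexHT OSN it was Ebf3, Lhx2, Ebf1, Emx2, Ebf2, Kdm1a, Ldb1, Ebf4, Bptf and Rcor1, where only Kdm1a over Ldb1, Ebf4 over Bptf and Bptf over Rcor1 were free of overlap. Lhx2 was above Ebf1 in 6 of 6 MexHT OSN libraries. Rcor1 was the lowest member in both neuron groups. Ebf3, Ebf2 and Lhx2, in that order of means, led each of the 3 mCherry-negative groups, and in the MexHT one every neighbouring pair overlapped. In the gg8 neurons the order began with Lhx2, Ebf3, Emx2 and Kdm1a and ended with Bptf, Ebf4 and Rcor1.

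**Figure D1:**
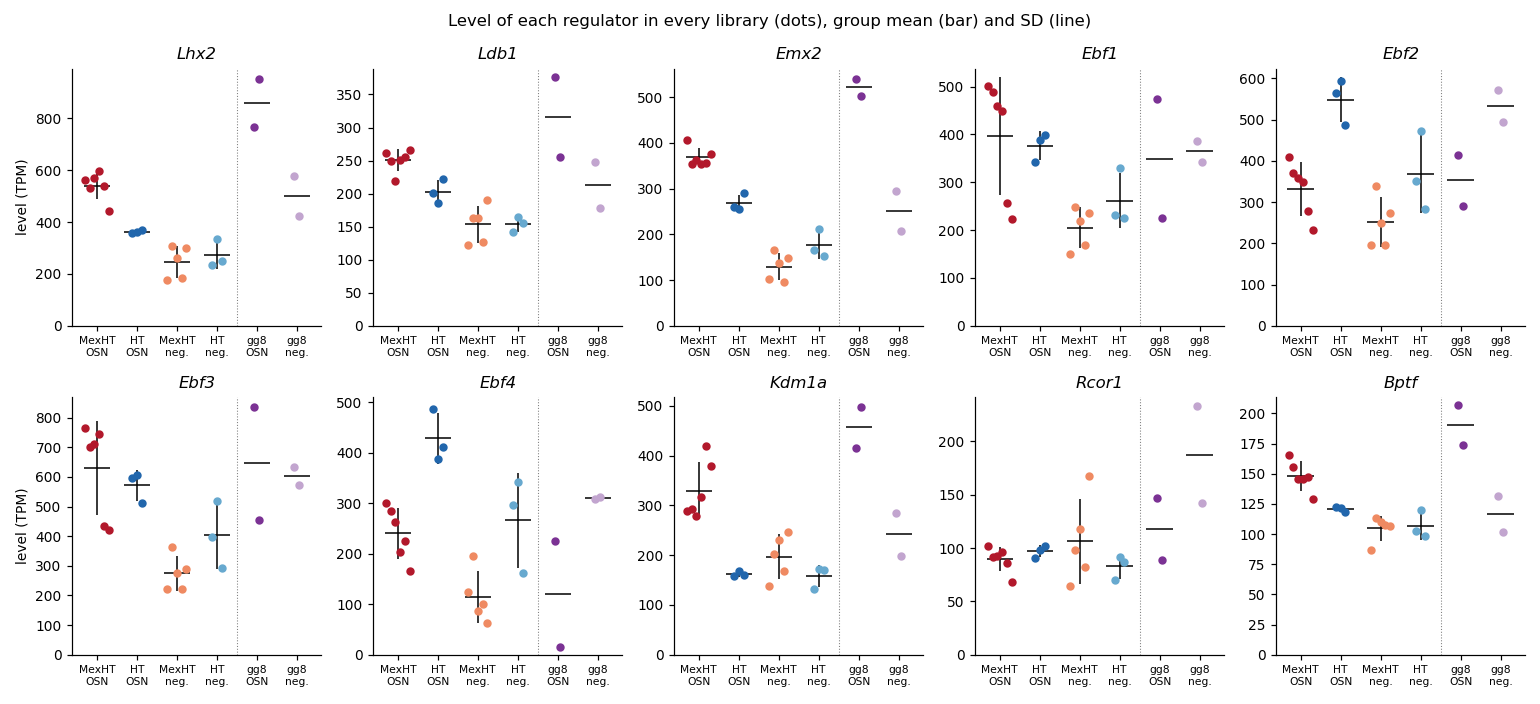
Level in TPM (vertical axes, from 0) of each regulator in every library (dots), by group, with the group mean (bar) and, for groups of 3 or more, the SD (line). The dotted line divides the 2 separately scaled tables. Kdm1a, Lhx2 and Emx2 dots of MexHT OSN all lie above those of HT OSN, and the Ebf2 and Ebf4 dots all lie below. How common such a separation was among all genes was not counted.

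The first comparison asks how the Mex3a fusion neurons differed from neurons with the editing domain alone. Kdm1a, Lhx2, Emx2, Ldb1 and Bptf were higher and Ebf2 and Ebf4 lower in MexHT OSN than in HT OSN, and Ebf1, Ebf3 and Rcor1 did not pass the test. The test was limma on log2(TPM + 1) over 16067 genes, with Benjamini-Hochberg adjustment and a two-sided threshold of 0.05. It called 5 of 10 members higher, where it called 19.9% of all genes higher, and 2 lower, where it called 16.8% lower. The median log2 difference was 0.19 over the members and 0.03 over all genes tested.

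With the Xist level as a covariate, 329 of the 16067 genes and 0 of the 10 members passed. The adjusted p of the 7 members called before then ran from 0.0965 to 0.309 with directions kept. Their log2 differences were then 0.88 for Kdm1a, 0.60 for Lhx2, 0.56 for Emx2, 0.45 for Ldb1, 0.33 for Bptf, -0.77 for Ebf2 and -0.59 for Ebf4. Of the 16 related genes called and picked by the naming rule in this comparison, Ssbp3 alone kept its call with that covariate (0.91, limma adjusted p = 0.0306). Xist was at 0.126 and 0.140 TPM in 2 of the 3 HT OSN libraries and at 58.4 TPM or more in all 6 MexHT OSN libraries. HT OSN replicate 2 was at 60.3 TPM. The Xist level thus went largely with the construct, and this fit cannot tell the Xist level and the construct apart. The lost calls therefore do not show which of them the differences follow. Mature neuron markers summed to 3412 to 8448 TPM in MexHT OSN and 12025 to 17736 TPM in HT OSN, with 9 of 12 called lower. Immature neuron markers summed to 6273 to 7314 TPM and 4135 to 4205 TPM, with 9 of 12 called higher. The part of these markers in the members' differences was not tested. In bulk samples, fewer cells of a type and less RNA per cell cannot be told apart.

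Among the LIM-homeodomain group, Lhx2 was at 358, 360.1 and 369 TPM in the HT OSN libraries and at a lowest of 443, a median of 551 and a highest of 597 TPM in MexHT OSN. The groups did not overlap. For all genes, the share whose MexHT and HT OSN libraries did not overlap was not counted. The limma log2 difference was 0.57 (SE 0.11, adjusted p = 0.00325), a fold of 1.48. Ldb1, the partner that Lhx2 binds through its LIM domains, was at 186, 201 and 222 TPM in HT OSN and from 219 through a median of 253 to 265 TPM in MexHT OSN. MexHT OSN replicate 3 lay inside the HT range and the other 5 above it. The Ldb1 difference was 0.30 (SE 0.10, limma adjusted p = 0.033), and it lost its call without any 1 of 5 libraries (HT OSN 1 or 2, MexHT OSN 1, 2 or 4), with limma adjusted p of 0.0561 to 0.149.

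Emx2 was at 256, 259.5 and 289 TPM in HT OSN and from 354 through a median of 359 to 407 TPM in MexHT OSN, without overlap. Its log2 difference was 0.46 (SE 0.09, limma adjusted p = 0.00386). Emx2os, an antisense transcript that shares up to 264 bases of exon with Emx2 on the other strand, was named after its values were seen. It went the other way: 37.9 ± 1.45 TPM (SD, n = 3) in HT OSN and 24.9 ± 4.73 TPM (SD, n = 6) in MexHT OSN, a log2 difference of -0.61 (SE 0.16, limma adjusted p = 0.0159). Whether the counting used strand is not given in the sources used here, so reads of the pair might be shared. Overlapping exons were also annotated for Ldb1 (Pprc1), Ebf2, Ebf3 and Rcor1, with shared stretches of 53 to 227 bases. Pprc1 lies on the strand opposite to Ldb1 and went the same way as Ldb1. It was at 15.1 ± 3.61 TPM (SD, n = 3) in HT OSN and 26.9 ± 10.2 TPM (SD, n = 6) in MexHT OSN. Its log2 difference was 0.75 (SE 0.27, limma adjusted p = 0.0492).

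The list of 9 Ldb1 partners holds Ldb2, Rlim, the LIM-only proteins and the single-stranded DNA-binding Ssbp proteins that steady Ldb1. Of these 8 were tested, of which 3 were called higher and 1 lower in MexHT OSN. Ssbp3 rose from 109 ± 7.61 TPM (SD, n = 3) to 221 ± 11.3 TPM (SD, n = 6), a log2 difference of 1.01 (SE 0.09, limma adjusted p = 9.58e-05). Lmo4 rose by 0.87 (SE 0.20, limma adjusted p = 0.00704) and Lmo2 fell by 0.55 on the log2 scale (SE 0.15, limma adjusted p = 0.0191), a call lost without HT OSN replicate 1 or 3 (0.0827 and 0.0667). The list's median log2 difference was 0.44.

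The Ebf family split. Ebf2 was at 487, 564 and 594 TPM in HT OSN and from 231 through a median of 353 to 409.6 TPM in MexHT OSN, without overlap. It fell by 0.74 on the log2 scale (SE 0.17, limma adjusted p = 0.00863). Its lowest MexHT OSN values, 279 and 231 TPM, were those of replicates 5 and 6. Ebf4 was at 388, 411 and 486 TPM in HT OSN and from 165 through a median of 244 to 300.4 TPM in MexHT OSN, again without overlap. It fell by 0.85 (SE 0.18, limma adjusted p = 0.00551). These 2 factors thus had lower levels in every MexHT OSN library than in any HT OSN library. How common such a separation was among all genes was not counted.

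Ebf1 and Ebf3 had the widest spread of the family among MexHT OSN libraries. Ebf1, also known as a regulator of B cells, was at 449 to 501 TPM in replicates 1 to 4 and at 256 and 224 TPM in replicates 5 and 6, with 342, 388 and 399 TPM in HT OSN. Replicates 1 to 4 thus lay above the HT range and replicates 5 and 6 below it. The Ebf1 difference was 0.01 (SE 0.27, limma adjusted p = 0.982). Ebf3 was at 702 to 766 TPM in replicates 1 to 4 and at 434.5 and 419.7 TPM in replicates 5 and 6, with 512, 596 and 607 TPM in HT OSN, and its difference was 0.10 (SE 0.22, limma adjusted p = 0.745). With replicates 5 and 6 left out together, an alternative chosen after seeing the data, Ebf1 was higher by 0.34 (limma adjusted p = 0.0102) and Ebf3 by 0.36 (limma adjusted p = 0.0102).

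TPM allows the 4 family members to be set against each other within a library. Ebf3 made up 39.3% ± 2.13 (SD, n = 6) of the summed Ebf TPM in MexHT OSN and 29.7% ± 1.23 (SD, n = 3) in HT OSN. Ebf2 made up 21.1% ± 1.42 and 28.4% ± 1.56, Ebf4 15.3% ± 2.27 and 22.3% ± 2.45, and Ebf1 24.4% ± 2.25 and 19.6% ± 2.42, respectively. The ratio of Ebf3 to Ebf2 was 1.56 to 2.14 in the 6 MexHT OSN libraries and 1.02 to 1.06 in the 3 HT OSN libraries. It was 1.06 to 1.14 in the 5 MexHT mCherry-negative libraries and 1.03 to 1.13 in the 3 HT mCherry-negative libraries. Replicates 5 and 6 were at 1.56 and 1.81 and so shared the higher ratio although their Ebf3 level was low. The ratio was noticed in these data and no test of it was made. Of the Ebf cofactors, Zfp423 rose by 0.87 on the log2 scale (SE 0.14, limma adjusted p = 0.00136), and 1 of the 2 tested was called higher.

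**Figure D2:**
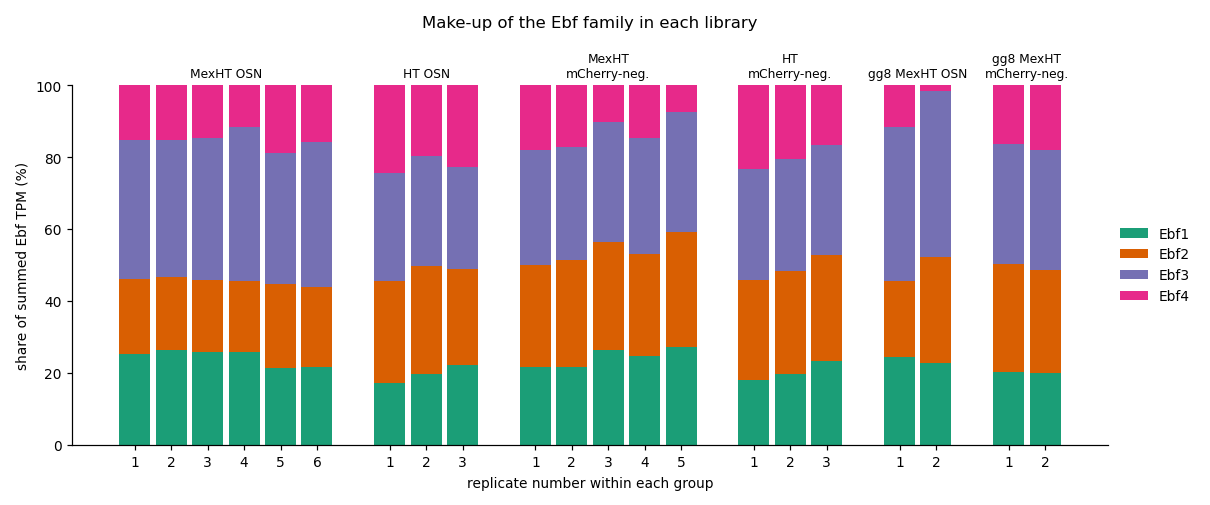
Share of the summed Ebf TPM (vertical axis, percent) taken by Ebf1, Ebf2, Ebf3 and Ebf4 (stacked colours) in each of the 21 libraries, by group and replicate number. The Ebf3 band is 36.4% to 42.6% in MexHT OSN and 28.3% to 30.7% in HT OSN, and the Ebf4 band is 1.60% in gg8 MexHT OSN replicate 2.

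Kdm1a had the largest positive difference of the members. It was at 157, 160.1 and 168 TPM in HT OSN and from 279 through a median of 305 to 419 TPM in MexHT OSN, without overlap. The log2 difference was 1.01 (SE 0.14, limma adjusted p = 0.000711), a fold of 2.01, and 94.6% of the genes tested had a lower value. Its scaffold Rcor1 was at 91.1, 98.7 and 101.7 TPM in HT OSN and from 68.6 through a median of 92.5 to 102.2 TPM in MexHT OSN. The Rcor1 groups overlapped, with a difference of -0.12 (SE 0.13, limma adjusted p = 0.462, 95% confidence interval -0.40 to 0.15). The ratio of Kdm1a to Rcor1 TPM was 1.57 to 1.73 in HT OSN and 2.83 to 5.53 in MexHT OSN.

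Rcor2, a paralog of Rcor1 that can take its place in the complex, was named here after its values were seen. It was at 11.3 to 17.9 TPM in HT OSN and 19.4 to 91.4 TPM in MexHT OSN (log2 difference 1.23, SE 0.48, limma adjusted p = 0.0669). It took 45.4% and 44.9% of the summed Rcor TPM in MexHT OSN replicates 5 and 6, 15.1% to 19.3% in replicates 1 to 4, and 8.87% to 13.1% in HT OSN. Of the 11 listed CoREST genes, 4 were called higher and 2 lower in MexHT OSN, with a median log2 difference of 0.47. Gse1, a subunit of the Kdm1a complex, rose by 1.14 (SE 0.16, limma adjusted p = 0.000765), from 103 ± 7.05 TPM (SD, n = 3) to 231 ± 49.2 TPM (SD, n = 6). Zmym3, a zinc finger subunit, rose by 0.69 (SE 0.12, limma adjusted p = 0.00193). The deacetylase Hdac1 fell by 0.41 on the log2 scale (SE 0.09, limma adjusted p = 0.00668). The other deacetylase of the complex, Hdac2, named after its values were seen, rose by 1.06 (SE 0.25, limma adjusted p = 0.00926), from 224 ± 34.2 TPM (SD, n = 3) to 485 ± 148 TPM (SD, n = 6).

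Bptf was at 118, 121 and 123 TPM in HT OSN and from 129 through a median of 146 to 165 TPM in MexHT OSN, without overlap but with a narrow gap. The log2 difference was 0.29 (SE 0.09, limma adjusted p = 0.0358), and it lost its call without any 1 of 7 libraries (all 3 HT OSN, or MexHT OSN 1, 2, 3 or 4), with limma adjusted p of 0.0576 to 0.0993. Of the 5 listed genes of NURF and the ISWI remodellers, 3 were called higher and 0 lower. The histone-binding subunits Rbbp4 and Rbbp7 rose by 0.46 (SE 0.13, limma adjusted p = 0.0183) and 0.44 (SE 0.09, limma adjusted p = 0.00352), the Rbbp4 call being lost without HT OSN replicate 1 or 2 (0.0659 and 0.0567).

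Further lists cover the lineage before receptor choice and the feedback after it. Of 5 genes of receptor feedback, 1 was called higher and 2 lower. Adcy3, the cyclase of odorant signalling that also acts in the feedback, fell by 2.72 on the log2 scale (SE 0.38, limma adjusted p = 0.000765), from 924 ± 206 TPM (SD, n = 3) to 151 ± 66.1 TPM (SD, n = 6). Rtp1, which carries receptors to the membrane, fell by 0.89 (SE 0.31, limma adjusted p = 0.0432), and Eif2ak3 (PERK), the kinase of the feedback signal, rose by 0.74 (SE 0.14, limma adjusted p = 0.00276). Adcy3 and Rtp1 are also on the mature neuron list. The Rtp1 call was lost without any 1 HT OSN library or MexHT OSN replicate 4 or 6 (limma adjusted p of 0.0512 to 0.146). Of 8 lineage transcription factors, 4 were called higher and 0 lower, among them Sox11 by 1.06 (SE 0.19, limma adjusted p = 0.00239) and Bcl11b by 0.67 (SE 0.12, limma adjusted p = 0.00242).

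The mCherry-negative cells give the same contrast outside the sorted neurons. No member passed between MexHT and HT there, and limma called 0 of 16860 genes, 0% higher and 0% lower, although 3465 genes had an unadjusted p under 0.05. By voom on the recovered counts the number called was also 0. An unadjusted p under 0.05 was reached by 3 members, all with lower means in MexHT. Ebf4 was at 63.6, 86.0, 100.4, 124.6 and 196 TPM in MexHT mCherry-negative cells and at 161, 297 and 342 TPM in HT mCherry-negative cells, with 4 of 5 MexHT libraries below all HT libraries. Its limma log2 difference was -1.25 (SE 0.37, adjusted p = 0.218), a fold of 0.421. The differences were -0.55 for Ebf2 and -0.54 for Ebf3, with limma adjusted p of 0.232 and 0.234. Kdm1a differed by 0.29 (95% confidence interval -0.17 to 0.75). In these cells the mature neuron markers summed to 1001 to 9288 TPM in MexHT and 7092 to 14461 TPM in HT, and Xist was at 0.0934 and 0.135 TPM in 2 of the 3 HT libraries. No gene on the related lists was called.

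**Figure D3:**
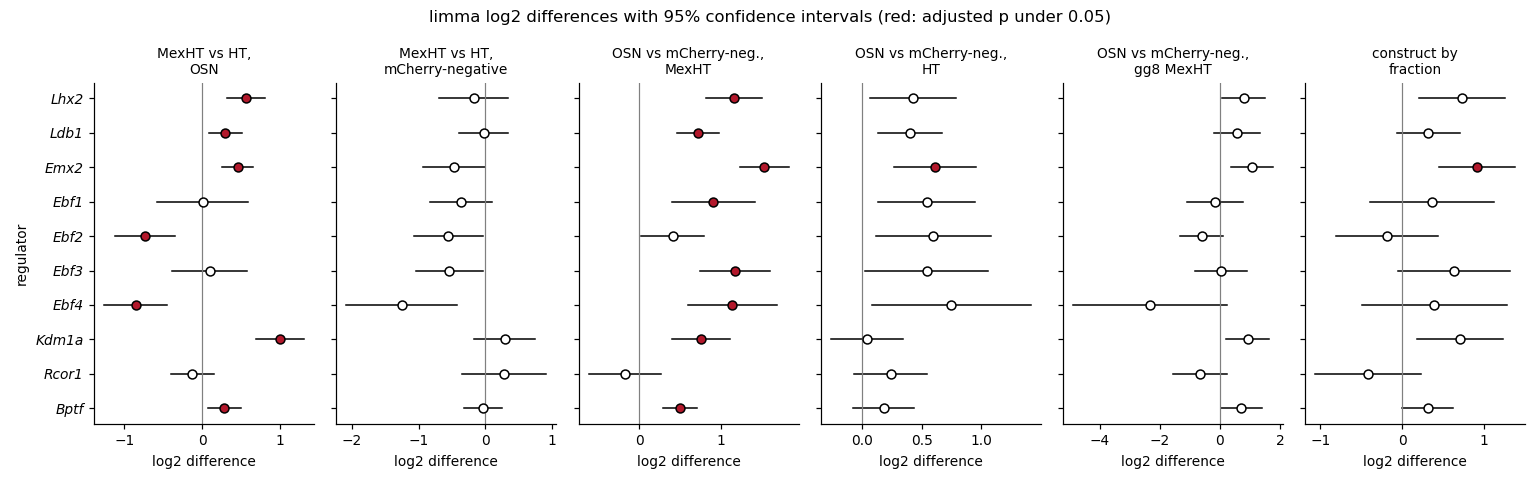
Log2 difference (horizontal axes, own range in each panel) of each regulator in the 5 comparisons and the construct by fraction term, with 95% confidence intervals from limma; red points have an adjusted p under 0.05. In MexHT against HT neurons 7 points are red, in MexHT neurons against mCherry-negative cells 8, in HT neurons against mCherry-negative cells 1 (Emx2), and in the construct by fraction term 1 (Emx2).

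The next comparisons set sorted neurons against the mCherry-negative cells. In MexHT mice with both drivers, 8 of 10 members were higher in neurons and 0 lower, where limma called 35.8% of 16522 genes higher and 27.6% lower. The median log2 difference was 0.83 over the members and 0.16 over all genes, and the latter became 0.03 with median-of-ratios scaling. Relative to the all-gene median the differences were 1.37 for Emx2, 1.02 for Ebf3, 1.01 for Lhx2, 0.98 for Ebf4, 0.75 for Ebf1, 0.59 for Kdm1a, 0.56 for Ldb1 and 0.34 for Bptf.

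Emx2 showed the largest step, from 95.7, 101.6, 137, 148 and 165 TPM in MexHT mCherry-negative cells to at least 354 TPM in MexHT OSN. Its log2 difference was 1.53 (SE 0.14, limma adjusted p = 1.27e-06). Ebf3 (1.18, SE 0.20) and Lhx2 (1.16, SE 0.16) also had neuron groups wholly above the mCherry-negative groups, as did Ldb1, Kdm1a and Bptf. The share of all genes with such groups was not counted. Ebf2 did not pass at 0.41 (SE 0.18, limma adjusted p = 0.0589). With each mouse as a block it passed at 0.51 (limma adjusted p = 0.0212), where MexHT OSN replicate 6, which has no partner, drops out of the estimate, and with MexHT OSN replicates 5 and 6 left out at 0.59 (limma adjusted p = 0.0079). Rcor1 differed by -0.18 (limma adjusted p = 0.467) and was the only member with a lower mean in neurons. B cell markers, relevant to Ebf1, summed to 38.9 to 82.4 TPM in MexHT OSN and 117 to 227 TPM in the mCherry-negative cells, with 10 of 10 called lower. The mean level of Ebf1 was higher in MexHT OSN, and the part of B cells in its values was not tested. Immature neuron markers were called higher in neurons for 10 of 12 and connective tissue and vessel markers lower for 10 of 10. Mature neuron markers were called higher for 2 of 12. Their sums overlapped, at 3412 to 8448 TPM in MexHT OSN and 1001 to 9288 TPM in MexHT mCherry-negative cells. The part of these marker lists in the members' differences was not tested.

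The related lists moved in both directions in MexHT neurons. Of the 8 tested Ldb1 partners 3 were higher and 1 lower, led by Ssbp3 at 1.14 (SE 0.10, limma adjusted p = 8.65e-07). Of the 11 CoREST genes 7 were higher and 2 lower: Zmym3 rose by 1.20 (SE 0.11), Hdac1 fell by 0.86 (SE 0.08), Hdac2 rose by 0.61 (SE 0.23, limma adjusted p = 0.0382), and Rest, the repressor of neuronal genes, fell by 3.12 on the log2 scale (SE 0.21). Zfp423 rose by 1.39 (SE 0.14, limma adjusted p = 3.48e-06), 1 of 2 Ebf cofactors. The NURF and ISWI list had 1 higher and 1 lower of 5, the feedback list 3 higher and 0 lower of 5, and the lineage list 3 higher and 1 lower of 8.

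Within the MexHT mice the neurons were above the mCherry-negative cells of the same mouse in 5 of 5 pairs for every member but Rcor1, which was above in 2 of 5. How many of all genes were above in 5 of 5 pairs was not counted. The Emx2 ratio ran from 2.14 to 4.01 and the Lhx2 ratio from 1.72 to 3.23. The Ebf2 ratio ran from 1.02 to 2.08 and the Rcor1 ratio from 0.512 to 1.58.

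In HT mice Emx2 alone passed, at 0.61 (SE 0.14, limma adjusted p = 0.0418), and 1 of 10 members was called higher where limma called 2.18% of 17027 genes higher and 9.11% lower. The HT mCherry-negative libraries were at 153, 166 and 211 TPM for Emx2, and all 3 HT OSN libraries were above them. The median log2 difference was 0.48 over the members and 0.10 over all genes. Mature neuron markers summed to 12025 to 17736 TPM in HT OSN and 7092 to 14461 TPM in HT mCherry-negative cells. Of these markers 0 of 12 were called. Immature neuron markers were called higher for 1 of 12 and connective tissue and vessel markers lower for 8 of 10. The part of these lists in the members' differences was not tested. An unadjusted p under 0.05 was reached by 7 members and by 5821 of the 17027 genes. For 6 of these members (Lhx2, Ldb1, Ebf1, Ebf2, Ebf4 and Emx2) all HT OSN libraries were above all HT mCherry-negative libraries. The share of all genes separated in this way was not counted.

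With the mouse as a block, 4967 genes were called instead of 1923, and 5 members passed: Emx2, Ldb1 (0.40, limma adjusted p = 0.0399), Ebf1 (0.54, limma adjusted p = 0.034), Ebf2 (0.60, limma adjusted p = 0.0214) and Ebf3 (0.54, limma adjusted p = 0.0352). The Emx2 call was lost without any 1 library other than HT mCherry-negative replicate 2 (limma adjusted p of 0.0875 to 0.153). Without HT mCherry-negative replicate 2, 4183 genes and 6 members were called. Kdm1a differed by 0.04 (95% confidence interval -0.27 to 0.34) and was higher in the neurons of 1 of 3 HT mice, with ratios of 0.939 to 1.19. Of the 11 CoREST genes, Rcor2 fell by 1.34 on the log2 scale in HT neurons (SE 0.32, limma adjusted p = 0.043), the only 1 called, and Lmo4 fell by 0.54 (SE 0.11, limma adjusted p = 0.0311), the only Ldb1 partner called. Both calls were lost without any 1 library other than HT mCherry-negative replicate 2 (limma adjusted p of 0.0564 to 0.137).

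**Figure D4:**
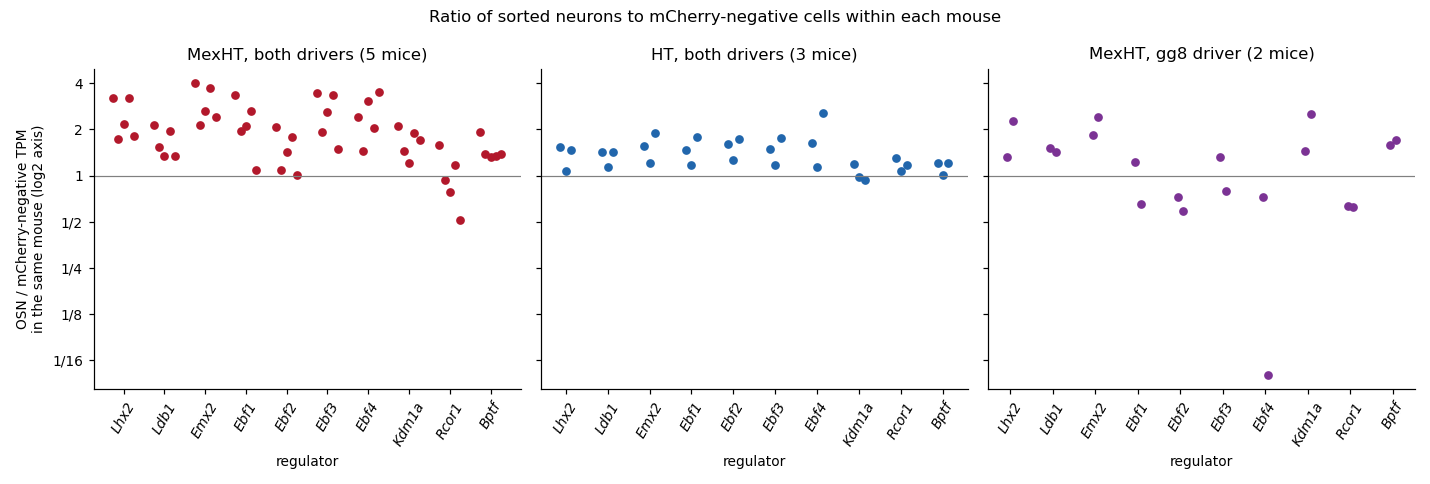
Ratio of OSN to mCherry-negative TPM within each mouse (vertical axis, log2 scale, line at 1), for each regulator, in 5 MexHT mice, 3 HT mice and 2 gg8 MexHT mice (dots). Lhx2, Ldb1, Emx2 and Bptf lie above 1 in every mouse, and Ebf4 of gg8 mouse 2 lies at 0.0505.

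Whether the step from mCherry-negative cells to neurons differed between MexHT and HT was tested as the interaction over the 17 libraries with both drivers. Emx2 passed: its step was larger in MexHT by 0.92 (SE 0.22, limma adjusted p = 0.0128). Both fractions entered this term. Between MexHT and HT, Emx2 differed by 0.46 in neurons and by -0.46 in mCherry-negative cells (SE 0.21, limma adjusted p = 0.246). Its mean in mCherry-negative cells was 130 TPM in MexHT and 177 TPM in HT. Emx2 was 1 of 10 members, where limma called 7.05% of 16785 genes higher and 5.37% lower. With median-of-ratios scaling the split over all genes changed from 1184 higher and 902 lower to 714 higher and 1053 lower. Lhx2 (0.74, SE 0.25, limma adjusted p = 0.0622) and Kdm1a (0.71, SE 0.25, limma adjusted p = 0.0695) did not pass. Ebf2 (-0.19, SE 0.29, limma adjusted p = 0.73) and Ebf4 (0.39, SE 0.42, limma adjusted p = 0.587) did not pass either. For these Ebf genes, called lower in MexHT neurons, no difference between the fractions was thus shown. With the mouse as a block Kdm1a passed at 0.67 (limma adjusted p = 0.0403), and with MexHT OSN replicates 5 and 6 left out Lhx2 (0.81, limma adjusted p = 0.0463) and Ebf3 (0.89, limma adjusted p = 0.0307) passed. Kdm1a and Lhx2 both passed without MexHT mCherry-negative replicate 5 (limma adjusted p of 0.0431 and 0.0442), and Lhx2 without replicate 2 (0.0319). The median over the members was 0.38, and 0.10 over all genes. In the related lists, Ssbp3 (0.94, SE 0.16, limma adjusted p = 0.00197), Zmym3 (0.83, SE 0.16, limma adjusted p = 0.00415) and Zfp423 (0.88, SE 0.24, limma adjusted p = 0.0268) passed with a larger step in MexHT. Hdac1 (-0.62, SE 0.15, limma adjusted p = 0.0135) and the silencer Rest (-1.65, SE 0.46, limma adjusted p = 0.0268) passed in the other direction. The Zfp423 call ended on leaving out MexHT mCherry-negative replicate 4, HT OSN replicate 1 or 2 or HT mCherry-negative replicate 2 (0.0508 to 0.0883), and that of Rest on leaving out HT OSN replicate 3 or HT mCherry-negative replicate 2 (0.0722 and 0.0883).

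The gg8 table shows the immature-driver neurons against the mCherry-negative cells of 2 mice. No member passed, and limma called 1.12% of 16490 genes higher and 7.2% lower. An unadjusted p under 0.05 was reached by 4 members (Lhx2, Emx2, Kdm1a and Bptf) and by 5111 of the 16490 genes. Lhx2 was at 765 and 952 TPM in neurons and 579 and 423 TPM in mCherry-negative cells. Emx2 was at 540.3 and 503 TPM in neurons and 295 and 208 TPM in mCherry-negative cells, a log2 difference of 1.07 (SE 0.29, limma adjusted p = 0.0692). Kdm1a was at 415 and 499 TPM in neurons and 285 and 199 TPM in mCherry-negative cells (0.93, SE 0.30, limma adjusted p = 0.0986). Ldb1 was at 377 and 255 TPM in neurons and 248 and 178 TPM in mCherry-negative cells, and Bptf at 207 and 173 TPM in neurons and 131 and 101.3 TPM in mCherry-negative cells. For these 5 genes both neuron libraries were above both mCherry-negative libraries. The share of all genes separated in this way was not counted. The median log2 difference was 0.30 over the members and 0.09 over all genes.

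The Ebf genes and Rcor1 did otherwise. Ebf4 was at 225 and 15.7 TPM in the gg8 neurons and at 309 and 312 TPM in the mCherry-negative cells, so the neurons of replicate 2 had 0.0505 of the level in the cells of the same mouse, on 205 recovered counts. The limma difference was -2.34 (SE 1.07, adjusted p = 0.189). Without gg8 MexHT OSN replicate 1 it was -4.22 (limma adjusted p = 0.0107), with 3703 genes called, and there the lone neuron library is assumed to vary like the mCherry-negative libraries. Ebf2 was at 415 and 291 TPM in neurons and 571 and 494 TPM in mCherry-negative cells, and Rcor1 was below its mCherry-negative value in both mice. Ebf1 and Ebf3 were higher in neurons in mouse 1 and lower in mouse 2. Mature neuron markers summed to 1639 and 869 TPM in the gg8 neurons and to 10200 and 17621 TPM in the gg8 mCherry-negative cells, so the mCherry-negative cells held more mature neuron marker RNA. Their part in the Ebf values was not tested. On the related lists Adcy3 fell by 3.80 on the log2 scale (SE 0.37, limma adjusted p = 0.0106) and Rest fell by 2.33 (SE 0.50, limma adjusted p = 0.0418), and no other gene was called. Both calls were lost without gg8 MexHT OSN replicate 2 or either mCherry-negative library, where limma called 0 genes of the whole table (1793 to 5189 at an unadjusted p under 0.05).

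MexHT OSN replicates 5 and 6 and gg8 MexHT OSN replicate 2 shared several values. They had the highest Mex3a levels, at 1271, 679 and 1632 TPM, against 328 to 359 TPM in MexHT OSN replicates 1 to 4 and 460.3 TPM in gg8 MexHT OSN replicate 1. They had the lowest Ebf1 levels of any OSN library, at 256, 224 and 225 TPM, and lower Ebf2 and Ebf3 levels than the other libraries of their groups. Ebf2 was at 279, 231 and 291 TPM in them. It was at 348 to 410 TPM in MexHT OSN replicates 1 to 4 and 415 TPM in gg8 MexHT OSN replicate 1. Kdm1a was at 419, 380 and 499 TPM in the libraries with the highest Mex3a levels, the highest values of their tables. Rcor2 took 45.4%, 44.9% and 56.3% of the summed Rcor TPM. Lhx2 did not follow that order, at 539, 443 and 952 TPM. Progenitor markers summed to 1024 and 524 TPM in MexHT OSN replicates 5 and 6 and to 225 to 256 TPM in replicates 1 to 4, and to 1262 TPM in gg8 MexHT OSN replicate 2 and 308 TPM in replicate 1. Mature neuron markers summed to 3412 and 5436 TPM in MexHT OSN replicates 5 and 6. In replicates 1 to 4 they summed to 6276 to 8448 TPM. They summed to 869 TPM in gg8 MexHT OSN replicate 2 and 1639 TPM in replicate 1. Xist was at 139.8 and 139.7 TPM in MexHT OSN replicates 5 and 6, and at 58.4 to 128.7 TPM in replicates 1 to 4. It was at 159 TPM in gg8 MexHT OSN replicate 2 and 0.441 TPM in replicate 1. Levels of the 2 tables were scaled separately, these libraries were picked out after their values were seen, and no test was made. Whether Mex3a, Xist or the progenitor or mature neuron markers bear on the members' levels was not tested.

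**Figure D5:**
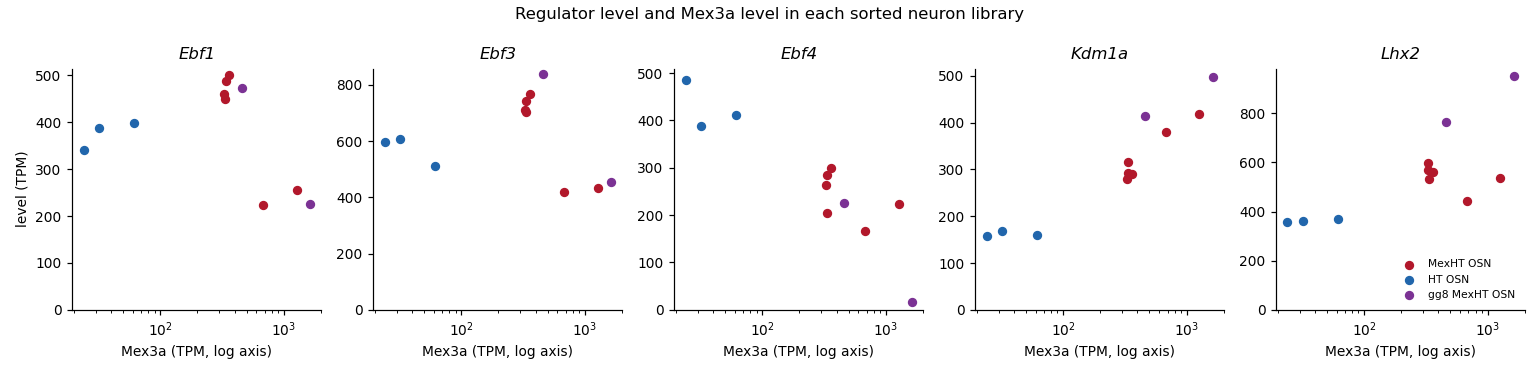
Level of 5 regulators (vertical axes, TPM from 0) against the Mex3a level (horizontal axes, TPM, log scale) in the 11 sorted neuron libraries, coloured by group; the gg8 libraries come from a separately scaled table. Ebf1 is lowest and Kdm1a highest, within each table's neurons, in the 3 libraries with Mex3a at 679, 1271 and 1632 TPM.

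Across the 17 libraries with both drivers, several pairs of members had like profiles. These libraries share fractions, constructs and cell makeup, so the Pearson correlations of log2(TPM + 1) are descriptions only. Lhx2 with Emx2 (0.96), Lhx2 with Ldb1 (0.94), Ldb1 with Emx2 (0.94) and Lhx2 with Bptf (0.94) were the highest, with Ebf1 and Ebf3 (0.96). Ebf3 was also like Emx2 (0.89) and Lhx2 (0.87). Ebf2 was most like Ebf4 (0.85). Ebf4 and Kdm1a (-0.15), Ebf2 and Kdm1a (-0.19) and Ebf4 and Rcor1 (-0.27) were the only pairs below 0.

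Among 13337 other genes whose mean reached 5 TPM, the most alike gene was Aff3 for Lhx2 (0.99), Rad54l2 for Ldb1 (0.97), Sarm1 for Emx2 (0.98), Cmtm4 for Ebf1 (0.98), Rnf182 for Ebf2 (0.97), Gm11149 for Ebf3 (0.99) and Prune2 for Ebf4 (0.99). For Bptf it was Ppfia1 (0.97), and the CoREST subunit Gse1 was among the 3 genes most like Kdm1a (0.98). Ebf3 had Ncam1, on the immature neuron list, in the second place (0.98). Rcor1 had no like gene above 0.86, the value for Suz12, a subunit of the Polycomb repressor.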

How the data were processed

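RNA of sorted cells was made into libraries with a stranded low-input total RNA kit, per the labels' protocols. The authors deposited TPM values, 1 column per library and nothing pooled, in 2 tables scaled separately, so tests were made within a table. The submitters' processing notes name FastQC, cutadapt, STAR, bedtools and the build mm10; the counting program, annotation and strand setting are not given in the sources used here. Symbols turned into dates (27 per table) were left out of the tests.

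Whole counts were recovered from the TPM steps for 23601 of 23614 rows (99.9%) with both drivers, date names included, within 1e-05 counts (1e-09 of larger counts). With gg8 this held for 22765 of the 22800 rows, out of 22945, whose step was known from the other table (99.8%), within 0.01 counts (2e-06 of larger counts). These gave the depths. The fits used limma 3.58.1 in R 4.3.3 (trended empirical Bayes) on log2(TPM + 1), with genes of mean 1 TPM or more. Those of the libraries with both drivers were tested on simulated data, and the gg8 fit was not. A fold on this scale understates changes of low genes, though none of the members is low. Alternatives were a pseudocount of 0.1, no filter, median-of-ratios scaling, voom on recovered counts, all 4 groups in one fit, Xist as a covariate, a replicate block and leaving out libraries.

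Per the labels, same-numbered OSN and mCherry-negative libraries share a mouse. The correlation of deviations from group means within those pairs was -0.11 to 0.42 in MexHT, 0.17 to 0.47 in HT and 0.02 in gg8. For MexHT against HT mCherry-negative libraries, equal numbers correlated at 0.34, 0.42 and 0.23. Named genes are all members, plus up to 3 genes per list and comparison with the smallest adjusted p (otherwise the highest mean), plus the most alike genes. Emx2os, Pprc1, Hdac2, and Rcor2 in MexHT OSN, were named after their values were seen. Marker and related gene lists, like the members, were chosen with earlier results of these data known. Some genes that the rule names are not reported here.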

Additional observations from a re-analysis of the deposited data

Results flagged for a closer look

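Of 20 groups of 4 or more libraries tested for a library far from the rest, 2 were flagged, where chance flags about 5% of groups. Ldb1 in MexHT OSN replicate 3 was at 218.7 TPM, and its gap to the nearest library was 0.668 of the group's range. Bptf in MexHT mCherry-negative replicate 1 was at 86.5 TPM, with a gap of 0.759 of the range. The Emx2 difference between neurons and mCherry-negative cells was larger in MexHT than in HT mice by 0.92 on the log2 scale (limma interaction, adjusted p = 0.0128). Between MexHT and HT, Emx2 differed by 0.46 in neurons and by -0.46 in mCherry-negative cells.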

How the results depend on the processing

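Of 930 values of members under alternatives, 851 kept direction and side of the threshold, 29 lost a call, 27 gained one and 23 changed sign. For related genes 848 of 936 kept both, 72 lost a call, 2 gained one and 14 changed sign. Of the 72, 15 came with the Xist covariate in MexHT against HT neurons, where Ssbp3 alone of 16 kept its call, and the other 57 belonged to 12 results: Lmo2, Rbbp4, Hmgxb4 and Rtp1 in that comparison, Lmo4 and Rcor2 in HT, Hmgxb4 and Rtp2 in MexHT neurons against mCherry-negative cells, Adcy3 and Rest in gg8, and Zfp423 and Rest in the interaction. In MexHT against HT neurons, Xist as a covariate left 329 genes and 0 members called, with log2 differences smaller than the main ones for Kdm1a (0.88) and Ebf4 (-0.59) and larger in size for Lhx2 (0.60), Emx2 (0.56), Ldb1 (0.45), Bptf (0.33) and Ebf2 (-0.77). In mCherry-negative cells, MexHT against HT gave 1 gene with no filter and 24 with all 4 groups in one fit. Neurons against mCherry-negative cells in HT gave 1049 genes by voom and 4967 with the replicate block, and 0 members with no filter or by voom and 5 with the block. In gg8 a pseudocount of 0.1 gave 646 genes instead of 1372. The interaction called 2 members by voom, 2 with the block and 3 without MexHT OSN replicates 5 and 6.

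Leaving out 1 library gave 3745 to 6506 genes and 5 to 7 members for MexHT against HT neurons, 0 to 4 genes and 0 members for MexHT against HT mCherry-negative cells, and 9623 to 10713 genes and 8 to 9 members for MexHT neurons against mCherry-negative cells. It gave 660 to 4183 genes (lowest without HT mCherry-negative replicate 1) and 0 to 6 members in HT, 0 to 3703 genes (0 without gg8 MexHT OSN replicate 2 or either mCherry-negative library, highest without gg8 MexHT OSN replicate 1) and 0 to 1 members in gg8, and 1195 to 2483 genes (lowest without HT mCherry-negative replicate 2) and 1 to 3 members for the interaction. For MexHT against HT neurons 3745 came without HT OSN replicate 1.

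In MexHT against HT neurons the Ldb1 call was also lost with median-of-ratios scaling (limma adjusted p = 0.0635) and with all 4 groups in one fit (0.0738). Sign changes were limited to members and related genes that had not passed the test, and their cause was not tested. With median-of-ratios scaling they were Ebf1 in MexHT against HT neurons (-0.025), Ldb1 (0.0075) and Zfp423 (0.014) in MexHT against HT mCherry-negative cells, Kdm1a (-0.039) and Smarca5 (-0.072) in HT neurons against mCherry-negative cells, and Ebf3 (-0.045) in gg8. By voom they were Ldb1 (0.048), Bptf (0.042) and Zfp423 (0.047) in MexHT against HT mCherry-negative cells, Kdm1a (-0.056) and Smarca5 (-0.089) in HT, and Ebf3 (-0.090) in gg8. Leaving out 1 library gave ranges across 0 for Ebf1 (-0.072 to 0.16) in MexHT against HT neurons, for Ldb1 (-0.10 to 0.054), Bptf (-0.086 to 0.057), Ssbp3 (-0.0064 to 0.17) and Zfp423 (-0.15 to 0.14) in MexHT against HT mCherry-negative cells, and for Rcor1 (-0.33 to 0.0057) in MexHT neurons against mCherry-negative cells. It did so for Kdm1a (-0.084 to 0.10) and Smarca5 (-0.089 to 0.10) in HT, and for Ebf1 (-0.69 to 0.38), Ebf3 (-0.41 to 0.48), Smarca5 (-0.32 to 0.30) and Zfp423 (-0.20 to 1.45) in gg8.

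MexHT and HT neurons share only replicate numbers: equal numbers correlated at 0.11, 0.13 and -0.23. A block on that number called 4801 genes there, lost Ldb1 (0.26, limma adjusted p = 0.14) and gained Ebf1 (0.36, 0.0473) and Ebf3 (0.35, 0.0476). In MexHT against HT mCherry-negative cells the block changed no member's call. The lowest recovered count of a member in a library was 205, and depth was not varied.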
